A study of Solanum tuberosum with 6 samples.

Results

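The miR4376, miR1919 and miR7122 families of potato leaves were described here as 8 sequences of the 910 in the deposited miRNA table. They were chosen by name: a species prefix followed by -miR4376, -miR1919 or -miR7122, with both arms of the hairpin and all length variants. The miR1919 family had 5 sequences, miR7122 had 2 and miR4376 had 1. Another 4 sequences of these families, written -MIR because they come from an arm or a position with no listed mature miRNA, were left out and are given only as context.

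Plant miRNAs are cut from hairpin precursors and guide an Argonaute protein to complementary mRNAs, which are then cleaved or less translated. All 3 families are known from the nightshades (Solanaceae). miR4376 and miR7122 belong to a group of families thought to descend from miR390, and several members of that group are of 22 nt and start the production of secondary small interfering RNAs from the mRNAs they cleave. In tomato, miR4376 cleaves the mRNA of an autoinhibited calcium ATPase, a pump that moves calcium out of the cytosol. In other dicots, miR7122 and its relatives target mRNAs of pentatricopeptide repeat proteins. miR1919 is known from potato, tomato and tobacco, and no role is stated for it here.

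The plants were of the cultivar Shepody, grown from seed tubers in a greenhouse. Those of the KPhi group (libraries T2, T4 and T6) were sprayed once, at 21 days after emergence, with 5 mL per plant of a commercial potassium phosphite product diluted to 1% (v/v), and those of the control group (C1, C3 and C5) with water. Leaves were taken 72 h later, on plants aged 24 days, and the study's methods call the 3 libraries per group biological replicates. Only leaves at this single time after spraying were sampled, and leaf identity could not be checked on markers in a table of miRNAs.

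The libraries held 4133739 to 8025802 mappable reads. The miRNA table took 9.14% to 11.3% of them in the control libraries and 9.35% in T6, but 4.56% in T2 and 3.66% in T4. TMM factors, which scale each library so that the bulk of sequences is level, were 0.74 to 0.95 except in T4, where the factor was 1.85. Levels below are counts per 1000000 table reads (CPM) after this scaling, unless they are named as reads per 1000000 mappable reads (RPM). Mappable reads are not only those of the miRNA table. The study's summary also lists reads matched to mRNAs, RFam or repeats, and reads with no hit.

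The 8 sequences are shown first because length, end and seed decide which RNA each name stands for. They are written 5′ to 3′ in DNA letters as deposited, with the seed (bases 2 to 8) in capitals.
stu-miR4376-5p_L-1R+2: aCGCAGGAgagatgatgctgga
stu-miR1919-5p: tGTCGCAGatgactttcgccc
sly-miR1919c-5p_R+1: tGTCGCAGatgactttcgccca
sly-miR1919c-5p_L+1R-1: cTGTCGCAgatgactttcgcc
stu-miR1919-3p: aCGAGAGTcatctgtgacagg
sly-miR1919a_R+1: aCGAGAGTcatctgtgacagga
stu-miR7122-5p_L-1R+2: tATACAGAgaaaccgctgtcgag
stu-miR7122-3p: aCAGCGTTtctctgtataacc

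The miR1919 sequences fall into 3 seeds. stu-miR1919-5p and sly-miR1919c-5p_R+1 share one, and the second is the first with 1 base added at its 3′ end. sly-miR1919c-5p_L+1R-1 starts 1 base earlier, so its seed is shifted. On the other arm, sly-miR1919a_R+1 is stu-miR1919-3p with 1 base added at its 3′ end, which makes it 22 nt long in place of 21. stu-miR1919-5p and stu-miR1919-3p face each other over 19 positions with 16 Watson-Crick pairs, 2 G-U pairs and 1 mismatch, and each leaves 2 unpaired bases at its 3′ end, the layout of a duplex cut by Dicer. The 2 miR7122 sequences hold an unbroken Watson-Crick stretch of 13 bases with each other. Paired without gaps, and with bulges not considered, they face over 18 positions with 5 mismatches, and leave 5 and 3 unpaired bases at their 3′ ends. In their names, L and R give the change at the left and right end against the listed miRNA, so stu-miR4376-5p_L-1R+2 is 22 nt where its listed form has 21, and stu-miR7122-5p_L-1R+2 is 23 nt where its listed form has 22. A loss of the first base moves the seed by 1 position against the listed form.

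The miR4376 sequence shares its seed with a single other sequence of the table, stu-miR3627-5p, of a family from the same miR390-related group. The common stretch, in capitals in the pair below, is 13 bases long and starts at base 2 of both, and 15 of 22 positions are identical.
stu-miR4376-5p_L-1R+2: aCGCAGGAGAGATGatgctgga
stu-miR3627-5p: tCGCAGGAGAGATGgcacttag
RefSeq lists 1 potato locus for each family, with hairpins of 88 (miR4376), 96 (miR1919) and 77 bases (miR7122), and its symbol for the first is MIR391, with MIR4376 as a synonym. No genome of the build used by the authors was at hand, so no positions are given.

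The families differed widely in abundance. Over the 6 libraries miR1919 had 13586 reads, or 0.535% of the table, miR4376 had 109 and miR7122 had 5. Within miR1919, stu-miR1919-5p made up 87.5% of the reads, stu-miR1919-3p 10.6% and sly-miR1919a_R+1 1.67%, while sly-miR1919c-5p_L+1R-1 and sly-miR1919c-5p_R+1 made up 0.111% and 0.0699%. stu-miR1919-5p was the 14th most abundant sequence of the 910 by total reads, stu-miR1919-3p the 43rd, sly-miR1919a_R+1 the 73rd and stu-miR4376-5p_L-1R+2 the 112th. Only these 4 reached 10 reads in at least 3 libraries, the condition for testing, and the other 4 are described by their reads alone.

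Of the 165 sequences tested across the whole table, edgeR's quasi-likelihood test called 0 (0%) at an adjusted p under 0.05, so no member was called, and 16 (9.70%) had an unadjusted p under 0.05, again with no member among them. DESeq2 called 0 and limma-trend called 0 at an adjusted p under 0.05, with 27 and 9 of the 165 at an unadjusted p under 0.05. Of the 4 members, stu-miR1919-3p and stu-miR4376-5p_L-1R+2 were among the 27 of DESeq2 (unadjusted p = 0.0196 and 0.0295) and none was among the 9 of limma-trend. Both were also under that unadjusted level in edgeR with RLE factors (0.0385 and 0.0462) and with the table total alone (0.0220 and 0.0329). In those runs, 20 and 23 of the 165 sequences were under it. Neither member was under it in edgeR with mappable reads as library size (0.320 and 0.460) or with the authors' size parameters (0.0601 and 0.0987). Of the 4 members tested, 4 lay above 0, with a median log2 fold change of 0.86, beside 72 of 165 above 0 and a median of -0.13 over all sequences tested. This count includes stu-miR1919-5p at 0.0045, whose sign turns with the scaling. The count also pools miR4376 with arms and length variants of miR1919, so the 4 are not independent observations.

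stu-miR4376-5p_L-1R+2 was about 2 times as abundant after KPhi on the TMM scale, but on few reads. Its deposited reads were 23 (C1), 9 (C3) and 8 (C5) without KPhi and 17 (T2), 22 (T4) and 30 (T6) with it. Exact 95% Poisson intervals, which cover counting error only, ran from 4.12 to 17.1 reads for the 9 of C3 and from 20.2 to 42.8 for the 30 of T6. The read numbers alone thus overlap between the conditions, since C1 lies above T2 and T4.
After TMM scaling the control libraries, in the same order, stood at 39.8, 25.9 and 23.8 CPM and the KPhi libraries at 50.9, 74.2 and 58.0 CPM, so that every KPhi library lay above every control library. Such a separation upward was seen in 13 of the 165 sequences tested (7.88%), and in 2 of the 4 members. The means were 29.8 ± 8.74 and 61.0 ± 12.0 CPM (SD, n = 3 each). The difference came to 1.00 ± 0.49 on the log2 scale (estimate ± standard error), with an adjusted p of 0.491 by the quasi-likelihood test of edgeR, whose unadjusted p is the 22nd smallest p of the 165. This sequence reached the 10 reads needed for testing in C1, T2, T4 and T6, but not in C3 (9) or C5 (8). Its entry to the test thus rested on the KPhi libraries, where it is high. The study also selected this sequence on the same libraries, so its separation is not independent evidence of a difference.
The conditions were also separated on the authors' normalized values, where the KPhi libraries held 19.9, 29.2 and 22.4 against at most 17.6 in control, and on table reads without TMM, where they held 46.5, 137 and 54.0 per 1000000 against at most 37.6.
As RPM, its levels were 4.23, 1.90 and 1.94 without KPhi, then 2.12, 5.01 and 5.05 with it. On that scale T2 fell below C1 and the conditions overlapped (exact two-sided permutation test of the means, p = 0.2, 0.7 when adjusted over 7 comparisons, n = 3 each). The separation was thus seen on 3 of the 4 scales. Without T4, the log2 difference on the TMM scale was 0.95.

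The study's target table lists transcripts for miR4376 only, among the 8 sequences. That prediction covered the miRNAs the study had selected as differentially expressed, so it says nothing on targets of miR1919 or miR7122. The predicted sites are shown because they give the pairing behind each listed transcript, 5′ to 3′ with paired bases (G-U included) in capitals.
PGSC0003DMT400053560, a gene of unknown function: TCCAGCATCATCTCTCCTGCGT
PGSC0003DMT400045517 and PGSC0003DMT400045515, annotated as transporter: TgaAGTATCATTTCTTTTGTGT
The first site pairs with stu-miR4376-5p_L-1R+2 at all 22 positions. The second, the same in both transporter transcripts, has 15 Watson-Crick pairs, 5 G-U pairs and 2 mismatches. The mismatches lie outside the part that faces the seed, where 3 of the pairs are G-U. Neither annotation names the calcium ATPase known from tomato, and levels of these transcripts were not measured in the libraries.

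stu-miR1919-5p, the main product of its family, showed no difference between the conditions beyond the spread of the libraries. Its reads numbered 2306 (C1), 1673 (C3) and 1999 (C5), then 904 (T2), 1669 (T4) and 3338 (T6). In the same order these were 3995, 4813 and 5936 CPM without KPhi and 2707, 5631 and 6451 CPM with it, so that the lowest and the highest library were both of the KPhi group.
By edgeR the log2 difference was 0.0045 ± 0.45 (adjusted p = 0.992), with a 95% interval from -0.99 to 1.00. That interval reaches about a doubling or a halving, so the data do not show that the level was the same.

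stu-miR1919-3p, from the other arm of the hairpin, was higher in T2 and T6, while T4 lay among the controls on the TMM scale. Its reads numbered 201 (C1), 141 (C3) and 131 (C5), then 398 (T2), 109 (T4) and 465 (T6). The control levels lay close together, at 348, 406 and 389 CPM, while T2 had 1192, T6 had 899 and T4 had 368 CPM, within the control range. The means were 381 ± 29.6 and 819 ± 418 CPM (SD, n = 3 each), and edgeR put the log2 difference at 1.11 ± 0.50 (adjusted p = 0.470).
On table reads without TMM, T4 stood at 677 per 1000000, above the controls at 301 to 347, and all KPhi libraries then lay above all controls. On the authors' normalized values T4 (145) lay below every control (147 to 162). As RPM, T4 (24.8) was also below every control (29.7 to 37.0). The separation was thus seen on 1 of the 4 scales.
Leaving out T4 raised the log2 fold change to 1.62 (adjusted p = 0.218 from edgeR), and leaving out T2 lowered it to 0.74 (adjusted p = 0.741 from edgeR).

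sly-miR1919a_R+1, the form of this arm that is 1 base longer, had 50 (C1), 24 (C3) and 18 reads (C5) without KPhi and 46 (T2), 26 (T4) and 63 reads (T6) with it. The control libraries stood at 86.6, 69.0 and 53.5 CPM, and the KPhi libraries at 138, 87.7 and 122 CPM. The conditions did not overlap, but only by the small gap between C1 and T4, and they did overlap on the authors' normalized values and as RPM. The log2 difference by edgeR was 0.72 ± 0.50 (adjusted p = 0.590).

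**Figure D1:**
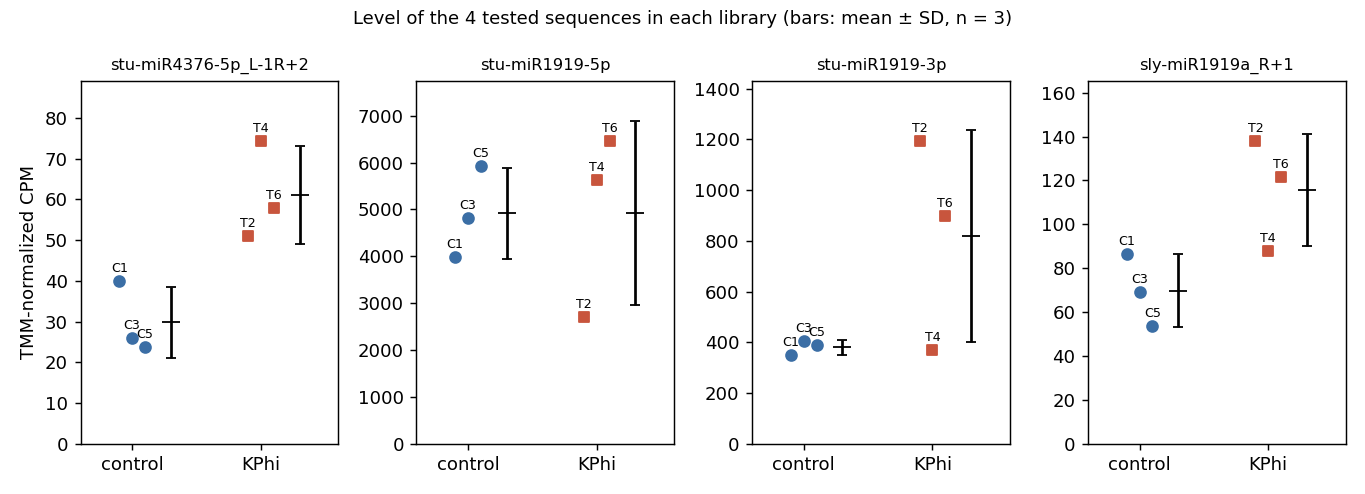
Level of the 4 tested sequences in each library, as TMM-normalized CPM on axes that start at 0 (circles: control, squares: KPhi, bars: mean ± SD, n = 3). For stu-miR4376-5p_L-1R+2 the KPhi libraries sit between 50.9 and 74.2 CPM, above the control libraries at 23.8 to 39.8, while for stu-miR1919-3p T4 (368 CPM) lies among the controls.

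The levels of the tested members kept one order in every library: stu-miR1919-5p, then stu-miR1919-3p, then sly-miR1919a_R+1, then stu-miR4376-5p_L-1R+2. sly-miR1919a_R+1 and stu-miR4376-5p_L-1R+2 came closest in T4, at 87.7 and 74.2 CPM. Those read numbers, 26 and 22, have overlapping Poisson intervals (17.0 to 38.1 and 13.8 to 33.3), so in T4 the order of these neighbours is within counting error.

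**Figure D2:**
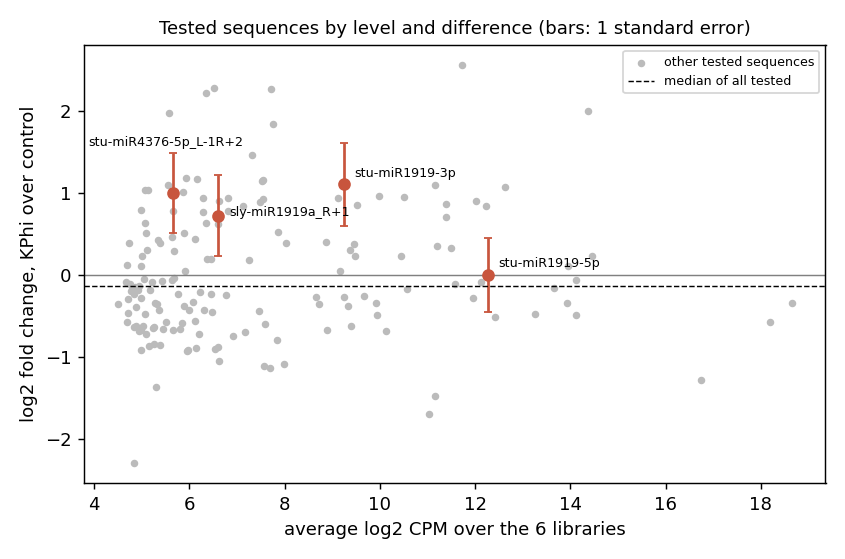
Log2 fold change (KPhi over control) against the average log2 CPM of the 165 sequences tested, with the 4 members in red (bars: 1 standard error) and the median of all sequences as a dashed line at -0.13. The members at 1.11, 1.00 and 0.72 lie within the cloud of other sequences of like abundance.

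The ratio between the arms of miR1919 needs no scaling between libraries, and it set T2 apart from all others. All 3′ arm reads together made up 9.79% (C1), 8.97% (C3) and 6.93% (C5) of the miR1919 reads without KPhi, and 32.8% (T2), 7.47% (T4) and 13.6% (T6) with it. The 95% Wilson intervals were 30.4% to 35.4% in T2 and 12.6% to 14.8% in T6, against 5.93% to 11.0% over the control libraries and 6.34% to 8.77% in T4. T2 and T6 were thus above the controls by more than counting error, and T4 was not.
The 5′ arm had 9.21 to 13.4 times the reads of the 3′ arm in control libraries, 12.4 times in T4, 6.33 times in T6 and 2.05 times in T2. The mean log2 ratio of 3′ to 5′ arm was -3.43 ± 0.28 without and -2.44 ± 1.31 with KPhi (SD, n = 3 each). These means differ by 0.99 (exact two-sided permutation test, p = 0.3, 0.7 when adjusted over 7 comparisons, with 0.1 the smallest p that 3 libraries against 3 allow). Without T2 the difference was 0.28, and without T4 it was 1.58.
In T2 the shift had parts in both arms. As RPM, the 5′ arm was at 113 in T2, against 353 to 484 in control and 381 and 562 in T4 and T6. The 3′ arm was at 55.3 in T2, 88.8 in T6 and 30.7 in T4, against 34.8 to 46.2 in control.

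**Figure D3:**
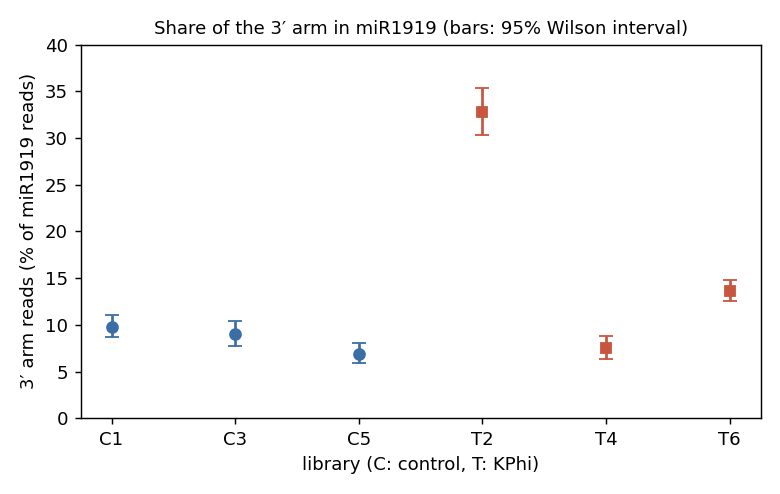
Reads of the 3′ arm as a percentage of all miR1919 reads in each library (circles: control, squares: KPhi, bars: 95% Wilson interval). T2 stands at 32.8% and T6 at 13.6%, while T4 (7.47%) lies within the range of the control libraries, 6.93% to 9.79%.

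The arm ratio of T2 also lay outside the range of the controls in 4 of 5 other known miRNAs. Among these 5, which have at least 10 reads of both arms in every library, the log2 ratio of 3′ to 5′ arm in T2 lay above the control mean by 2.34 in stu-miR162a, 2.21 in stu-miR166a, 1.39 in sly-miR168a and 0.61 in sly-miR166c, and below it in sly-miR396a (-6.10). In sly-miR166c T2 (0.92) was within the range of the controls (-0.21 to 0.92), and in the other 4 it was not. T4 lay below the control range in sly-miR166c (-1.40), stu-miR162a (2.80) and stu-miR166a (6.55), and within it in sly-miR168a and sly-miR396a. T6 lay outside that range in stu-miR162a only (4.71). Lying outside a range of 3 control libraries thus does not by itself set T2 apart in these miRNAs. For miR1919 T2 lay above the control mean by 2.40. The shift in T2 is therefore not shown to be particular to miR1919, although the control libraries spread over 0.54 in miR1919 and over 1.09 to 3.84 in the others except stu-miR162a (0.38).

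Among the 3′ arm reads of miR1919, the longer form sly-miR1919a_R+1 made up 19.9% (C1), 14.5% (C3) and 12.1% (C5), and 10.4% (T2), 19.3% (T4) and 11.9% (T6). The conditions overlapped (15.5% ± 4.01 and 13.9% ± 4.75, SD, n = 3 each), with p = 0.5 from the exact permutation test and 0.7 after the same adjustment. In T2 and T6, where the 3′ arm had its largest shares, both length forms lay above every control library as CPM.

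Summed over its 5 sequences, miR1919 stood at 5722 ± 1172 CPM without and 6709 ± 2236 CPM with KPhi (SD, n = 3 each), and edgeR over family totals put its log2 difference at 0.23 ± 0.38 (adjusted p = 0.801). Of the 32 families tested in that fit, 0 (0%) had an adjusted p under 0.05 by edgeR, and 5 had an unadjusted p under 0.05 (0 and 6 by DESeq2). There miR4376, which is its single sequence, came to 1.11 ± 0.38 on the log2 scale (adjusted p = 0.280 from edgeR) and was among those 5. In the fit over sequences it was 1.00 ± 0.49. The 2 fits differ in library totals and scaling factors, in the estimate of spread and in the number of tests adjusted for. Which of these moved the values was not tested.

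**Figure D4:**
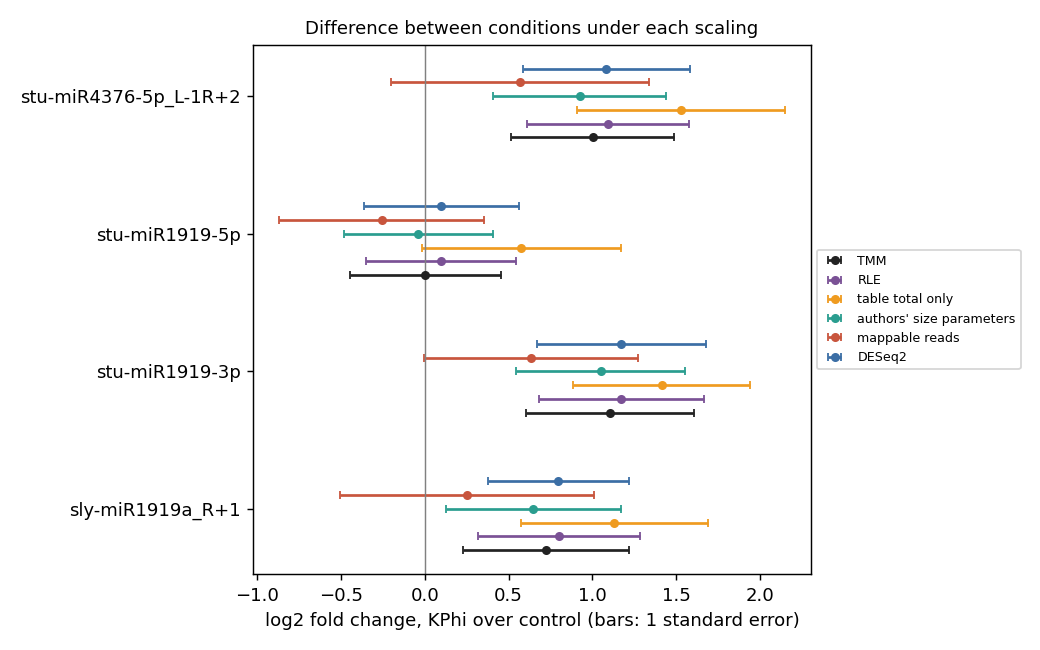
Log2 fold change (KPhi over control) of the 4 tested members under 5 scalings in edgeR and under DESeq2 (bars: 1 standard error). stu-miR4376-5p_L-1R+2 runs from 0.57 with mappable reads as library size to 1.53 with the table total, and stu-miR1919-5p changes sign.

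The scaling moved the members together with all sequences. With mappable reads as library size the median of all 165 moved from -0.13 to -0.49, and the log2 fold changes were 0.57 for stu-miR4376-5p_L-1R+2, 0.63 for stu-miR1919-3p and 0.25 for sly-miR1919a_R+1. With the table total alone the median was 0.35 and the 3 values were 1.53, 1.41 and 1.13. These 3 sequences lay above the median of all sequences under each of these scalings.

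Both rare 5′ arm forms of miR1919 were at the edge of detection. sly-miR1919c-5p_L+1R-1 had between 1.33 and 3.60 reads in each of the 6 libraries. The deposited values of this sequence are fractional, by a rule not given in the sources used here. sly-miR1919c-5p_R+1, which the authors' groups place among sequences with no match to the potato genome, had at most 3 reads in any library and none in C3. No difference between the conditions could be seen at such numbers.

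miR7122 was barely detected. stu-miR7122-3p had 2 reads in C5 and 1 each in T2 and T6, and stu-miR7122-5p_L-1R+2 had 1 read in T6. In C1, C3 and T4, which had 0 reads of both sequences, the upper limit that a count of 0 allows (3 reads) corresponds to 0.552 to 0.683 RPM, against 1.90 to 5.05 RPM measured for miR4376. Whether miR7122 differed between the conditions was not detectable at this depth.

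Outside the rule, 1 of the 4 sequences written -MIR was tested. sly-MIR1919a-p5, whose last 11 bases are the first 11 of stu-miR1919-5p, had 17, 17 and 19 reads without KPhi and 33, 12 and 27 with it, and the conditions overlapped (log2 difference 0.52 ± 0.55, adjusted p = 0.709 by edgeR). stu-MIR4376-p3, from the arm opposite to miR4376, had 1, 0 and 5 reads without KPhi and 6, 0 and 3 with it, fewer than its partner in every library. The partners hold an unbroken Watson-Crick stretch of 10 bases. Paired without gaps, they face over 19 positions with 11 Watson-Crick pairs, 2 G-U pairs and 6 mismatches. In that layout neither leaves unpaired bases at its 3′ end. Pairing with bulges was not computed, so these values do not show how well the partners pair when bulges are allowed. Of the related families miR390, miR391, miR3627 and miR173, the table held 7 sequences with 102 reads in all, of which 0 were tested. The most abundant were stu-miR390-5p, which triggers secondary small interfering RNAs that act on auxin response factors, with 51 reads, and stu-miR3627-5p with 23. stu-miR390-5p had 12, 9 and 8 reads without KPhi and 8, 6 and 8 with it. stu-miR3627-5p, which has the seed of stu-miR4376-5p_L-1R+2, had 8, 3 and 1 without KPhi and 6, 2 and 3 with it.

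Across the 6 libraries the members did not share one pattern. The log2 CPM of stu-miR1919-3p went with that of its longer form (Pearson's r = 0.818) and against that of stu-miR1919-5p (-0.416), and stu-miR4376-5p_L-1R+2 went with sly-miR1919a_R+1 (0.745) but not with stu-miR1919-5p (-0.051). Among the other tested sequences, those with the highest r were sly-MIR167b-p3 (0.964) for stu-miR4376-5p_L-1R+2, sly-miR168a-5p_R+1 (0.872) for stu-miR1919-5p, PC-3p-10278_209 (0.912) for stu-miR1919-3p and stu-miR398b-3p (0.952) for sly-miR1919a_R+1. These values describe 6 libraries that share scaling factors, and each was picked as the highest over all other tested sequences.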

How the data were processed

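Small RNA was sequenced from potato leaves in 3 control and 3 KPhi libraries, grouped by their labels. Sequencing was on a HiSeq after TruSeq small RNA preparation. The authors used ACGT101-miR (version not given in the sources used here), which discarded reads lacking the adapter or of unsuitable length and assigned the rest to miRBase precursors or the potato genome. The deposited counts of raw and mappable reads are whole numbers per library. The deposited expected counts per sequence are whole for most sequences and fractional for others, by a rule of the authors not given in the sources used here. The deposited normalized values (signal) are the same reads divided by 1 parameter per library, with 0.001 for 0 reads. The table of the authors' own test, which holds their p-values, means and SDs, was not used.

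Expected counts were rounded to whole reads, a sequence was kept if 3 or more libraries had 10 or more reads of it, and conditions were compared with edgeR 4.0.16 (TMM, quasi-likelihood, R 4.3.3) with Benjamini-Hochberg adjustment over all sequences and a threshold of 0.05. Family totals were the reads summed over lower-case miR names of one family number. Arm ratios, end shares and RPM were tested by exact permutation (two-sided, scipy 1.17.1), adjusted over 7 comparisons. Pairing and shared stretches were computed from the deposited sequences, and RefSeq's SolTub_3.0 gene table gave the loci. Predicted target sites are sequences of the study's supplement. Alternatives were other scalings, other filters, DESeq2 1.42.0, limma-trend (limma 3.58.1) on log2 of the normalized value plus 1, and leaving out each library. PCR reads without molecular identifiers are not independent molecules, so intervals cover counting error only. The families, lists and tests were chosen with earlier results of these data known. All members were named, and others by fixed lists, abundance or highest correlation.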

Additional observations from a re-analysis of the deposited data

How the results depend on the processing

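No alternative run brought any of the 4 tested members, or the miR1919 or miR4376 total, under an adjusted p of 0.05. Adjusted p-values over the alternatives ranged from 0.242 to 0.743 for stu-miR4376-5p_L-1R+2, from 0.205 to 0.743 for stu-miR1919-3p and from 0.312 to 0.849 for sly-miR1919a_R+1. The log2 fold change of stu-miR1919-5p turned to -0.26 with mappable reads, to -0.039 with the authors' size parameters and to -0.13 with limma-trend, and the miR1919 total turned to -0.16 with mappable reads. The KPhi minus control difference of miR1919 was -49.4 RPM, but 2695 per 1000000 table reads (p = 0.4, exact permutation test). Without a filter on low reads, edgeR called 4 sequences and 2 families, where the filtered fits called 0, and none of the 8 members was among them. With 1 library left out, log2 fold changes ranged from 0.95 to 1.42 for stu-miR4376-5p_L-1R+2, from 0.74 to 1.62 for stu-miR1919-3p, from 0.59 to 1.08 for sly-miR1919a_R+1, from -0.19 to 0.32 for stu-miR1919-5p, from 0.022 to 0.54 for the miR1919 total and from 1.03 to 1.50 for the miR4376 total. The arm log2 ratio difference ranged from 0.28 to 1.58, the share of the longer 3′ end from -4.37 to 0.54 percentage points, and the differences in RPM from -169.7 to 71.6 for miR1919 (71.6 without T2) and from 0.88 to 2.34 for miR4376. The causes were not tested. miR4376 has under 10 reads in C3 and C5, so with 10 reads required in every library it has no value. No paired analysis was run, because the labels do not state which control and KPhi libraries, if any, belong together.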
